A study of Mus musculus with 36 samples.

Results

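Transmitter release needs vesicles that have been docked and primed at the presynaptic active zone, and 9 genes of that step were followed here in mouse hippocampus: Unc13a, Unc13b and Unc13c (the Munc13 priming factors), Rims1 and Rims2 (the RIM scaffolds), Cadps (CAPS1), Rab3a, Syt1 (synaptotagmin-1) and Snap25. They were taken by symbol from 24060 gene symbols with RNA counts, all 9 were among the 14405 genes with enough counts to be tested, and none was lost to that filter. Their promoters were taken from a table of 20213 consensus peaks of the histone variant H2A.Z: 14 peaks had one of these genes as nearest gene, and 9 of the 14, at 8 genes, lay within 1000 bp of its transcript start, among 12204 such promoter peaks in all. Unc13b was chosen by its RNA difference between old and young naive mice in these same libraries, so that difference is given as a description with no test for any of the 9 genes. The other 8 were added as its partners in priming and fusion.

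The animals were C57BL/6J mice with no transgene or deletion named in the labels, and the tissue was whole hippocampus. Old mice were 15.5 months and young mice 2.5 months of age. Fear conditioned mice spent 5 min in the training session and received 3 shocks (0.5 mA, 2 s each), and brains were frozen 30 min later, whereas naive mice were not trained. The groups were old conditioned, old naive, young conditioned and young naive, each with 3 RNA libraries and 3 H2A.Z libraries, and the 12 input libraries were not used here.

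Munc13 proteins open the SNARE protein syntaxin so that it can pair with SNAP-25 and synaptobrevin, which is the step called priming. RIM proteins sit at the active zone, bind Munc13 and the vesicle GTPase Rab3, and help to place calcium channels next to primed vesicles. Synaptotagmin-1 is the calcium sensor that triggers fast fusion, and CAPS proteins are priming factors related to Munc13. In forebrain glutamatergic synapses Munc13-1, from Unc13a, is the main isoform, while Munc13-2, from Unc13b, serves part of the hippocampal synapses, and Munc13-3, from Unc13c, is best known from the cerebellum. H2A.Z is a variant of histone H2A that marks nucleosomes on both sides of active transcript starts.

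Promoter windows of 250 bases before to 50 bases after a RefSeq start (GRCm38.p6, which is mm10) were held for 7 of the 9 genes, in 9 windows. Rims2 and Snap25 had none. The 3 windows below are shown for the H2A.Z folds of their peaks for training in old mice, described further on: the Unc13b peak had the lowest fold of the 9, that of Unc13a came next, and that of Syt1 was near 0. They lie at chr4:43058703-43059002 on the plus strand (Unc13b), chr8:71671708-71672007 on the minus strand (Unc13a) and chr10:109010926-109011225 on the minus strand (Syt1). The Unc13b window is at an internal start, inside the RefSeq span of the gene, chr4:43046193-43264873. Capitals mark GC boxes, written GGGCGG and searched on both strands.
Unc13b: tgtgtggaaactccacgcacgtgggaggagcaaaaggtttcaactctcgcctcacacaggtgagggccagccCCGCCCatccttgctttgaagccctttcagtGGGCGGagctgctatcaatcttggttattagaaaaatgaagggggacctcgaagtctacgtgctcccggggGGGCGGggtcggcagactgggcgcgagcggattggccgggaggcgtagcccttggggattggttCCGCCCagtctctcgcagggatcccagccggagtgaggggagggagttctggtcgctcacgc
Unc13a: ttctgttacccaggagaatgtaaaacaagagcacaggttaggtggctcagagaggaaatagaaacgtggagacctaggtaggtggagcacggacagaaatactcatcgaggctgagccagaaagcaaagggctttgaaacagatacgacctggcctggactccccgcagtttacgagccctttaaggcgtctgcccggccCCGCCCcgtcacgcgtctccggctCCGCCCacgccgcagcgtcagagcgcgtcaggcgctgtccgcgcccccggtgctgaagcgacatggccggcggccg
Syt1: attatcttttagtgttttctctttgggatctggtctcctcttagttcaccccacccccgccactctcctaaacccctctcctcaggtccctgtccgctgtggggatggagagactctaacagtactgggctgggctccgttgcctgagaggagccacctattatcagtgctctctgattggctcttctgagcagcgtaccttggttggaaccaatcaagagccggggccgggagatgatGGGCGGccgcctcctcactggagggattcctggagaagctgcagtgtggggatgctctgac

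The Unc13b window held 4 GC boxes, 2 CCAAT boxes (CCAAT), 1 E-box (CACGTG) and 20 CpG sites at 62.0% GC. The Unc13a window held 2 GC boxes, no CCAAT box, 3 copies of TGACG, the core of the cAMP response element, and 27 CpG sites at 61.3% GC. The Syt1 window held 1 GC box, 2 CCAAT boxes and 8 CpG sites at 56.7% GC. Among 32851 RefSeq windows of the same 300 bases, 35.7% had a GC box, 37.4% a CCAAT box, 20.8% a TGACG core and 7.15% an E-box on either strand, with a median of 52.7% GC and 7 CpG sites. The full cAMP response element TGACGTCA, present in 1.79% of windows, was in none of the 9. The E-box and the GC boxes do not share letters, whereas every TGACGTCA would also count as a TGACG core. These matches describe letters only. The deposited H2A.Z peaks covered 205 of the 300 bases at Unc13b, all 300 at Unc13a and 117 at Syt1.

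RNA libraries held 9410843 to 13350561 counts, and 17017 to 17436 genes had a count. Levels are given in CPM, counts divided by the TMM-scaled library total, and differences as log2 fold changes. They are compared within a gene and never between genes, since transcript length was not corrected for. The labels do not say that libraries of a group came from separate animals, so p-values measure the spread between these libraries. In whole tissue, fewer cells of a type and less RNA per cell cannot be told apart. All 10 neuronal, 8 CA1 and 10 dentate granule cell markers had counts in every group, as did 8 of 9 listed CA3 markers, so markers of the labelled tissue were present. Libraries differed in other tissue too: 16 choroid plexus markers summed to 263 to 429 CPM in old conditioned, 443 to 3109 in old naive, 270.1 to 3726 in young conditioned and 515 to 4949 CPM in young naive libraries. Young naive library 81 was the highest of these. The sum of 7 nuclear-retained RNAs was lowest in old conditioned library 61, at 7833 CPM, and, at 21365 CPM, highest in library 79 of the young naive group.

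Unc13b, which encodes the Munc13-2 priming factor, was lower in all 6 old libraries than in all 6 young ones. Its selection used the naive libraries, so their part of this separation is only a description. Old and young libraries did not overlap for 23.1% of all genes in conditioned mice and for 13.4% in naive mice. The share of genes that separate by age over both conditions was not computed. The level of Unc13b was 44.8, 50.3 and 51.6 CPM in old conditioned libraries 61, 63 and 65, and 46.1, 47.4 and 46.4 CPM in old naive libraries 67, 69 and 71. It was 56.6, 58.4 and 61.9 CPM in young conditioned libraries 73, 75 and 77, and 68.0, 61.5 and 65.3 CPM in young naive libraries 79, 81 and 83. The highest old library, at 51.6 CPM, stayed under the lowest young one, at 56.6 CPM, and the order of group means was old naive (46.6 ± 0.678), old conditioned (48.9 ± 3.60), young conditioned (58.9 ± 2.69) and young naive (64.9 ± 3.26; SD, n = 3 each). The neighbours within an age overlapped in the old, where naive libraries lay inside the conditioned range, and in the young, where conditioned library 77 lay above naive library 81.

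**Figure D1:**
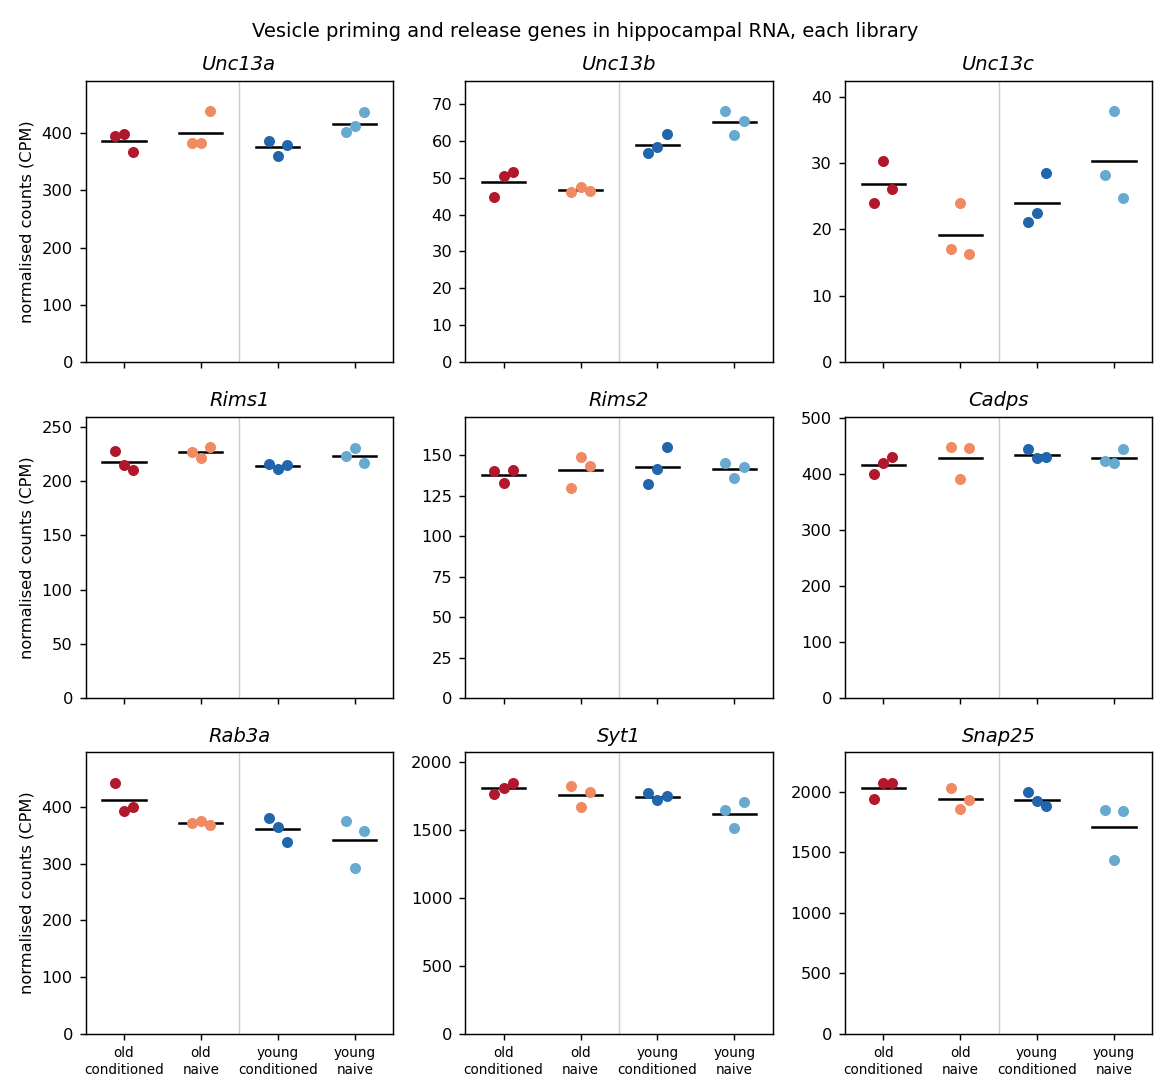
Levels of the 9 genes in each of the 12 RNA libraries, in CPM on linear axes that start at 0, with points for libraries and lines for group means (3 libraries each). For Unc13b the 6 old libraries lie between 44.8 and 51.6 CPM and the 6 young ones between 56.6 and 68.0 CPM. Most other genes overlap between ages, and the naive libraries are those used to select Unc13b.

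In naive mice, the contrast on which Unc13b was selected, the old minus young difference was -0.48 (SE 0.0738) on the log2 scale, a level of 71.9% of that in young mice. That contrast called 8 of 14405 genes (0.0555%), and nothing is read from it here. Conditioned mice share no library with it, but the fit took its spread from all 12 libraries, the naive ones included. In conditioned mice the old minus young log2 difference of Unc13b was -0.27 (SE 0.0739, 95% interval -0.42 to -0.11), a level of 83.1% of that in young mice. There 3 of 3 old libraries were below all 3 young ones, beside 23.1% of all genes without overlap in either direction. By edgeR's quasi-likelihood test the unadjusted p of Unc13b was 0.00237 and its p adjusted over 14405 genes was 0.223. So it did not pass the threshold of 0.05, and 10.9% of all genes had a lower log2 change. Over the other settings tried its difference stayed between -0.31 and -0.21, and its adjusted p between 0.110 and 0.757. DESeq2 gave -0.26 with an unadjusted p of 0.00215 and no adjusted p, since its filter left this gene out.

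The training differences of Unc13b were smaller, and they use the naive libraries of its selection. Conditioned minus naive was 0.07 (95% interval -0.09 to 0.23, adjusted p = 0.854) in old mice and -0.14 (95% interval -0.29 to 0.02, adjusted p = 0.760) in young mice by the same edgeR test. The interaction, training in old minus training in young mice, was 0.21 (SE 0.104, adjusted p = 0.705). None of the 3 passed.

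Nuclear-retained RNAs moved in the direction of Unc13b with age. Of 7 such RNAs, 6 were lower in old than in young conditioned mice, with a median log2 difference of -0.36, and 6 of 7 were lower in old than in young naive mice, with a median of -0.53. Their summed level was 7833 to 13747 CPM in old conditioned and 13459 to 16996 CPM in young conditioned libraries. With the mean log2 level of these RNAs as a covariate, the difference of Unc13b in conditioned mice was -0.21 (adjusted p = 0.312, edgeR). With the choroid plexus markers as a covariate it was -0.30 (adjusted p = 0.110, edgeR). Without old conditioned library 61 it was -0.21, and without both that library and young naive library 81, a setting chosen after seeing the data, it was also -0.21. CA3 markers, at 531 to 560.2 CPM in old conditioned and 524 to 569.9 CPM in young conditioned libraries, were lower in old conditioned mice for 5 of 8 genes (median -0.11), and in naive mice 4 of 8 were lower (median 0.01). Dentate granule cell markers were lower in old conditioned mice for 7 of 10 (median -0.12), but higher in old naive mice for 7 of 10 (median 0.16). CA1 markers were higher in old conditioned mice for 6 of 8 (median 0.16), and in naive mice for 4 of 8 (median -0.01). The part of these cell types in the Unc13b difference was not tested. Reads were counted by symbol with a strand setting not given here, and the Unc13b locus overlaps Fam214b, Gm23709 and Gm25010 in RefSeq.

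Unc13a, the gene of Munc13-1, had values that overlapped between ages. Its level was 395, 397 and 367 CPM in old conditioned, and 382, 382 and 438 CPM in old naive libraries. It was 386, 360.3 and 379.8 CPM in young conditioned, and 401, 411 and 436 CPM in young naive libraries. Old and young libraries overlapped in both conditions, whereas in young mice all 3 conditioned libraries were below all 3 naive ones. Old minus young was 0.04 (95% interval -0.09 to 0.18) in conditioned mice and -0.06 (95% interval -0.19 to 0.08) in naive mice. Conditioned minus naive was -0.15 in young mice (SE 0.0637, unadjusted p = 0.0330, adjusted p = 0.730, edgeR) and -0.05 in old mice (adjusted p = 0.875), and neither passed. The locus overlaps Colgalt1, Gm39195 and Mir6769b.

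Unc13c, the gene of Munc13-3, was the most variable of the 9, with its highest library 2.32 times its lowest. It had 24.1, 30.2 and 26.1 CPM in old conditioned, and 17.0, 23.9 and 16.3 CPM in old naive libraries. It had 21.2, 22.5 and 28.4 CPM in young conditioned, and 28.2, 37.8 and 24.7 CPM in young naive libraries. All 3 old conditioned libraries were above all 3 old naive ones, and all 3 old naive ones were below all 3 young naive ones. Conditioned minus naive was 0.49 in old mice (SE 0.172, unadjusted p = 0.0115, adjusted p = 0.695, edgeR) and -0.34 in young mice (SE 0.168, adjusted p = 0.746, edgeR), so neither was called. Without young naive library 81 the value in young mice was -0.14. The interaction was 0.83 (SE 0.240, unadjusted p = 0.00319, adjusted p = 0.680, edgeR) and did not pass. Old minus young was 0.16 in conditioned mice (95% interval -0.20 to 0.52) and -0.67 in naive mice (SE 0.171, a description).

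Markers of the thalamus, which borders the hippocampus and can enter a dissection, moved in the same directions. Of 8 tested thalamic markers, 6 were higher in conditioned than in naive old mice (median log2 difference 0.29), none was higher in conditioned than in naive young mice (median -0.26), and none was higher in old than in young naive mice (median -0.37). The summed level of 9 listed thalamic markers, all with counts in every group, was 176 to 261 CPM in old conditioned, 171 to 209 in old naive, 180.4 to 222 in young conditioned and 190.2 to 266 CPM in young naive libraries. Young naive library 81 was highest for both these markers and Unc13c. Of 7 tested cerebellar granule cell markers, 3 were higher in conditioned than in naive old mice (median -0.11). By training in young mice 3 were higher (median -0.23), and 4 were higher in old than in young naive mice (median 0.07). Of 8 oligodendrocyte markers none was higher in these 3 comparisons, with medians of -0.13, -0.30 and -0.28 in that order. The part of all these markers in the Unc13c values was not tested.

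Rims1, Rims2 and Cadps were the steadiest of the 9, with the highest library 1.10, 1.19 and 1.15 times the lowest. Rims1, the gene of RIM1, averaged 218 ± 9.12 CPM in old conditioned, 227 ± 5.32 in old naive, 214 ± 2.36 in young conditioned and 224 ± 6.67 CPM in young naive libraries (SD, n = 3 each). Its conditioned libraries were below its naive ones in young mice, at 216, 211 and 215 CPM against 223, 230.2 and 217 CPM, with a log2 difference of -0.06 (adjusted p = 0.819, edgeR). Rims2, the gene of RIM2, ranged from 132 to 141 CPM in old conditioned, 129.8 to 149 in old naive, 132 to 155 in young conditioned and 136 to 145 CPM in young naive libraries, with overlap in every comparison. Cadps ranged from 399 to 429.6 CPM in old conditioned, 391 to 448 in old naive, 428 to 445 in young conditioned and 419 to 444 CPM in young naive libraries, also with overlap throughout. In conditioned mice the 95% interval for old minus young was -0.08 to 0.13 for Rims1, -0.20 to 0.09 for Rims2 and -0.19 to 0.07 for Cadps.

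Rab3a, the gene of the vesicle GTPase that binds RIM, was highest in old conditioned libraries. Its level was 443, 393 and 400.0 CPM in old conditioned, and 371, 375 and 369 CPM in old naive libraries. It was 381, 365 and 338 CPM in young conditioned, and 375, 293 and 357 CPM in young naive libraries. The 3 old conditioned libraries were above all 9 others, a pattern noticed after the values were seen. The share of all genes with this pattern was not computed. Of all genes, 23.1% did not overlap for age in conditioned mice and 12.8% for training in old mice. Old minus young in conditioned mice was 0.19 (95% interval 0.02 to 0.36, unadjusted p = 0.0306, adjusted p = 0.331, edgeR), and conditioned minus naive in old mice was 0.15 (unadjusted p = 0.0819, adjusted p = 0.721). Neither passed the threshold. The highest Rab3a value was in old conditioned library 61, the library with the least choroid plexus RNA. The lowest was in young naive library 81, the library with the most. For age in conditioned mice 16 of 16 choroid plexus markers were lower in old mice, and 8 of 10 neuronal markers were higher. Leaving out 1 library at a time gave 0.13 to 0.23 for the first difference and 0.09 to 0.18 for the second.

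Snap25 and Syt1, the genes of the SNARE protein and of the calcium sensor, had their lowest value in young naive library 81, as did Rab3a. That library had the most choroid plexus RNA. Snap25 had 1997, 1924 and 1884 CPM in young conditioned libraries, against 1850.0, 1436 and 1841 CPM in young naive libraries, and the groups did not overlap. Syt1 had 1775, 1719 and 1749 CPM in young conditioned libraries, against 1649, 1513 and 1705 CPM in young naive libraries, also without overlap. In old mice they overlapped: Snap25 ranged from 1939.7 to 2075 CPM in conditioned and from 1858 to 2033 CPM in naive libraries, and Syt1 from 1769 to 1851 CPM in conditioned and from 1669 to 1828 CPM in naive libraries. Conditioned minus naive in young mice was 0.18 for Snap25 (unadjusted p = 0.0372, adjusted p = 0.731, edgeR) and 0.11 for Syt1 (adjusted p = 0.753, edgeR). Without library 81 the values were 0.07 and 0.06.

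**Figure D2:**
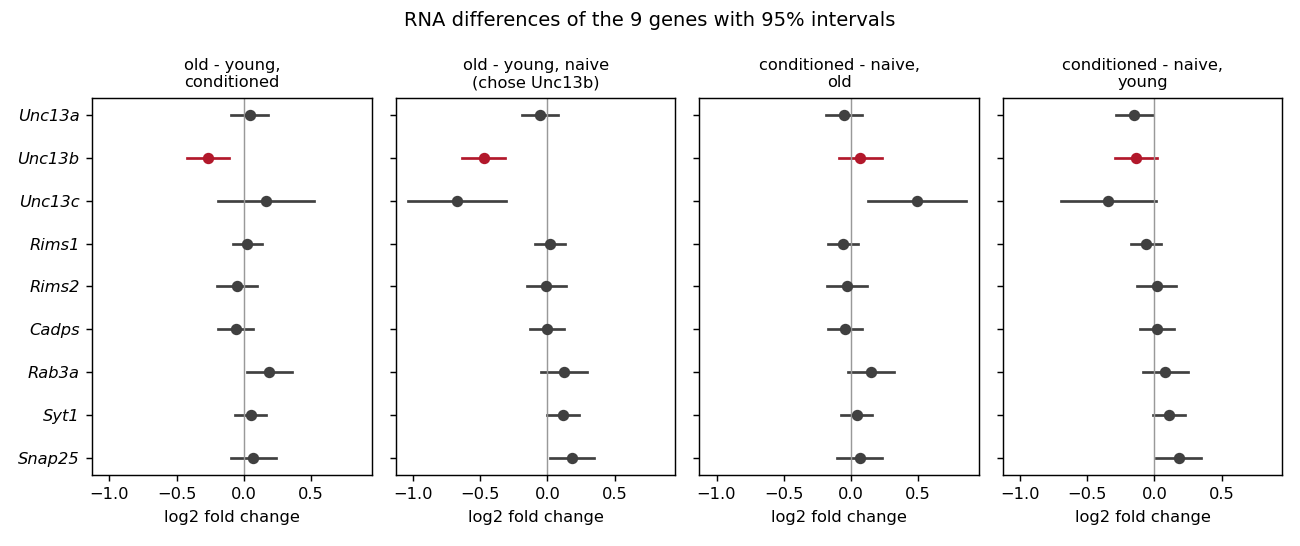
Log2 fold changes of the 9 genes in 4 comparisons, with 95% intervals from the edgeR fit (points are estimates, and Unc13b is in red). Unc13b is at -0.27 for age in conditioned mice, and Unc13c has the widest intervals of the 9.

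Across the 9 genes, edgeR called none in any tested comparison. For age in conditioned mice 0 of 9 were called beside 0.0347% of all genes. For training this was 0 of 9 beside 0.0278% in young mice and 0 of 9 beside 0.0139% in old mice, and for the interaction 0 of 9 beside 0% of all genes. At an unadjusted p under 0.05 there were 2 of 9 for age in conditioned mice (13.4% of all genes), 2 of 9 for training in young mice (6.63%), 1 of 9 for training in old mice (7.16%) and 1 of 9 for the interaction (7.2%). DESeq2 called 0 of the 7 with an adjusted p for age in conditioned mice and 0 of 9 in each of the other comparisons. Libraries of the compared groups did not overlap for 2 of 9 genes for age in conditioned mice (23.1% of all genes), 4 of 9 for training in young mice (12.8%), 2 of 9 for training in old mice (12.8%) and 3 of 9 for age in naive mice (13.4%, a description). Genes called in these comparisons lay elsewhere: C4b and Pcdhb9 were among 5 for age in conditioned mice, and the activity-regulated genes Fosb and Dusp1 were called by training at both ages.

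Other parts of the release machinery were taken as 85 listed genes in 6 roles, 84 of them tested, chosen with earlier results of these data known. For age in conditioned mice edgeR called 0 of 84. Values above 0 were found for 53 and below 0 for 31, with a median log2 difference of 0.07, against -0.01 over all genes tested. At an unadjusted p under 0.05, 20 were higher and 3 lower in old conditioned mice, against 897 and 1029 of all 14405 genes. DESeq2 called 8 of the 59 that it gave an adjusted p, all higher in old mice, beside 2.54% of all genes with one. Among them were Apba1, Cplx1, Rph3a, Slc17a7, Syngr1, Syngr3 and Syt7, of which Apba1, Slc17a7, Syngr1 and Syngr3 were named after their values were seen.

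By role, medians for age in conditioned mice were 0.17 for calcium sensors (9 of 11 above 0), 0.12 for SNAREs and their partners (12 of 17), 0.09 for vesicle and recycling proteins (15 of 21), 0.06 for the Rab3 cycle (9 of 13) and 0.01 for active zone scaffolds (8 of 16). The list of priming and tethering relatives, among them Cadps2 and Unc13d, had a median of -0.07 with 0 of 6 above 0. It also held Dlg1 (-0.08), a scaffold gene and not a priming or tethering factor. Unc13d was barely detected, at means of 1.14 CPM in old conditioned and 1.41 CPM in young conditioned libraries. Of these 6, 0 had an unadjusted p under 0.05 by edgeR, and in naive mice 3 of the 6 were above 0. For age in conditioned mice no gene of the 6 roles passed by edgeR. General neuronal markers had 8 of 10 above 0 with a median of 0.14. In the same comparison 16 of 16 choroid plexus markers (median -2.76) and 6 of 7 nuclear-retained RNAs (median -0.36) were lower in old mice. The part of these RNAs in the values of the release genes was not tested.

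Among direct partners in fusion, Stx1a, the gene of a syntaxin of the release machinery, was at 0.19 for age in conditioned mice (adjusted p = 0.270, edgeR). Vamp2, the gene of synaptobrevin-2, was at 0.12 (adjusted p = 0.567, edgeR). Both had old conditioned libraries above every young conditioned one, in a comparison in which 23.1% of all genes did not overlap. In naive mice Stx1a had the other sign, at -0.11, with old libraries below every young one.

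The complexins clamp and promote fusion: Cplx1 averaged 452 ± 31.4 CPM in old conditioned and 392 ± 9.51 CPM in young conditioned libraries (log2 difference 0.20, adjusted p = 0.223, edgeR), and Cplx2 was at 0.09 (adjusted p = 0.461, edgeR). Rph3a, the gene of the Rab3 effector rabphilin, averaged 334 ± 13.7 CPM in old conditioned and 292 ± 13.8 CPM in young conditioned libraries (0.19, adjusted p = 0.223, edgeR). Syt7, a slower calcium sensor, averaged 387 ± 9.87 CPM in old conditioned and 344 ± 14.9 CPM in young conditioned libraries (0.17, adjusted p = 0.236, edgeR). The large scaffold genes Pclo (piccolo) and Erc2 (ELKS family) had the other sign, at -0.16 each (adjusted p = 0.347 and 0.424, edgeR), and Bsn (bassoon) was at 0.09 (adjusted p = 0.589). Rims3 was at 0.22 (95% interval -0.19 to 0.63), Cadps2 at -0.06, Unc13d at -0.35 (95% interval -1.33 to 0.62), Rab3c at -0.06 and Rab3gap1, part of the Rab3 GTPase-activating complex, at 0.00.

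**Figure D3:**
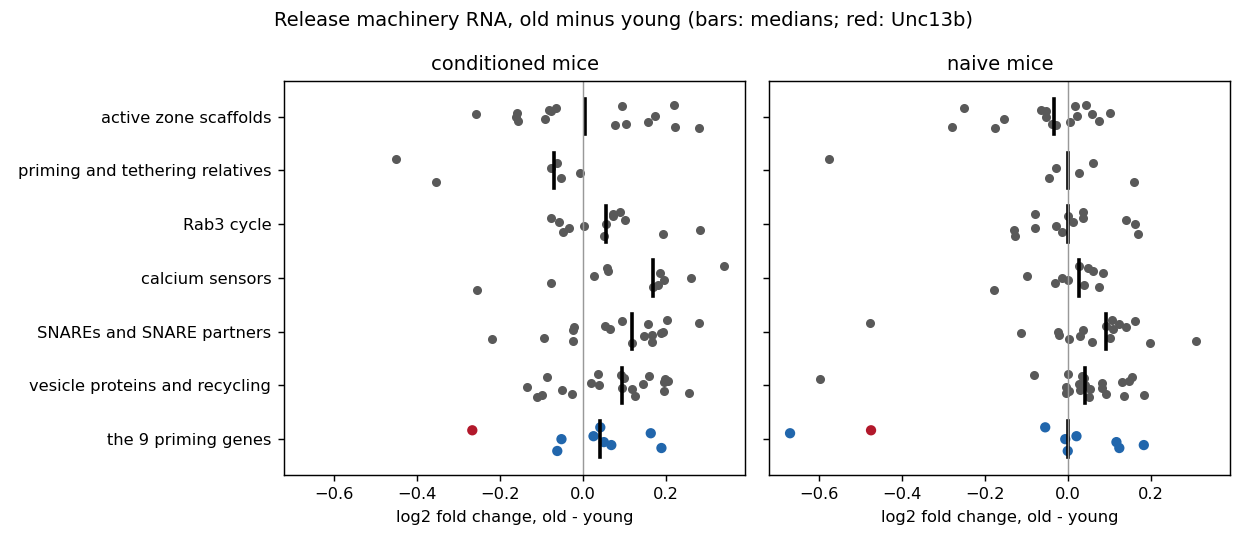
Log2 fold changes, old minus young, of 84 release machinery genes in 6 roles and of the 9 priming genes, in conditioned mice on the left and in naive mice on the right (points are genes, bars medians). In conditioned mice Unc13b lies at -0.27 and the median of the calcium sensors at 0.17.

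For training, edgeR called none of these genes. In old mice the 84 had a median of 0.05 with 0 called by edgeR and 16 at an unadjusted p under 0.05 (11 higher, 5 lower, beside 7.16% of all genes), and DESeq2 called 1, Syngr3, beside 0.0461% of all genes. In young mice the median was 0.02, with 0 called by edgeR, 4 at an unadjusted p under 0.05 (6.63% of all genes) and 0 called by DESeq2. For the interaction edgeR called 0 of the 84, with 11 at an unadjusted p under 0.05 (7.2% of all genes) and 0 by DESeq2.

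The genes whose log2 CPM was most like that of Unc13b over the 12 libraries were Khdrbs2 (Pearson's r 0.940, Spearman's rho 0.986), 1700123O21Rik (0.932 and 0.923), Cxadr (0.930 and 0.944), Thsd7b (0.929 and 0.881) and Sirt4 (0.914 and 0.902), out of 12963 genes ranked. Khdrbs2 encodes an RNA-binding protein of the splicing-regulator family of Sam68, Cxadr a cell adhesion receptor and Sirt4 a mitochondrial sirtuin. Khdrbs2 was lowest in old conditioned library 61, at 7.43 CPM, and highest in young naive library 79, at 13.1 CPM, as was Unc13b. Libraries 61 and 79 were also the lowest and the highest for the summed nuclear-retained RNAs, at 7833 and 21365 CPM. The part of those RNAs in the correlations was not tested. The correlations describe 12 libraries in 4 groups that share scaling, and part of them is the age difference itself. Of the other 8 genes, Unc13c was nearest to Unc13b by both measures (r = 0.541, rho = 0.524). The lowest Pearson's r was that of Rab3a (-0.558) and the lowest Spearman's rho that of Snap25 (-0.615).

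At the promoters, the authors' deposited table gives 1 log2 fold for each peak and comparison and 1 log2 mean level for each group, with no values per library. The peaks, on mm10, spanned the transcript start in 8 of 9 cases. The Unc13b peak, at chr4:43058798-43059708 and labelled exonic, had its middle 181 bp downstream of the start, and was called in 3 of 3 libraries of every group. That start is internal: the peak lies inside the RefSeq span of the gene, chr4:43046193-43264873, and does not reach its upstream end. No other peak had Unc13b as nearest gene. The Unc13a peak lay at chr8:71670649-71672122, also labelled exonic. Rims2 had a peak at its upstream start, chr15:39196772-39199300, and a smaller one at an internal start, chr15:39659241-39659954. The Rab3a (chr8:70754488-70755412) and Syt1 (chr10:109010389-109011042) peaks were labelled 5′ UTR. The Snap25 peak (chr2:136713998-136714481) was intronic, with its middle 791 bp inside the gene, the farthest of the 9, followed by Cadps at 637 bp. Outside the 1000 bp limit were, among others, a second Rab3a peak at -1214 bp and the nearest Unc13c peak at -2245 bp, so Unc13c had no promoter peak. The minus sign means upstream of the start used in the deposited table. The Unc13c peak, chr9:73935567-73936056, lies inside the RefSeq span of the gene, chr9:73479422-74008155.

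**Figure D4:**
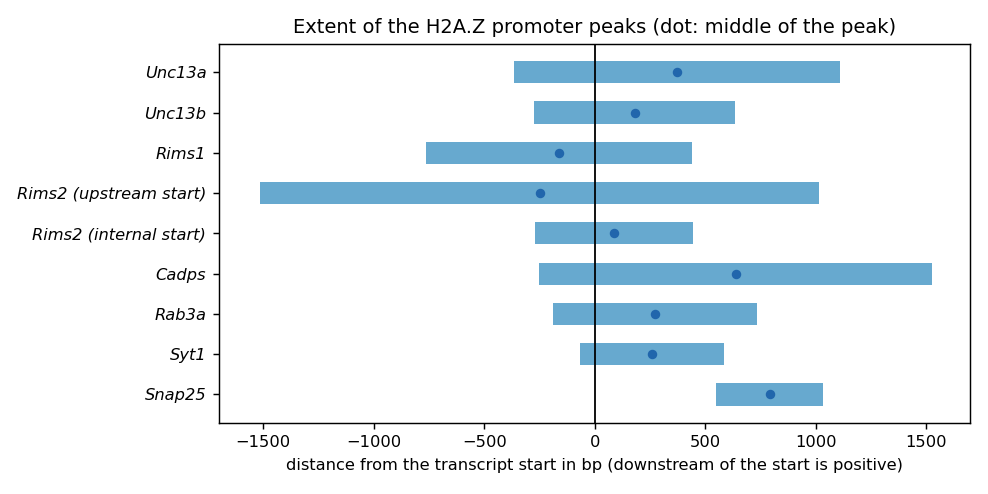
Extent of the 9 H2A.Z promoter peaks of the priming genes in bp from the transcript start (bars are peaks, dots their middles, positive is downstream). The Unc13b peak spans the internal start used for it, with its middle 181 bp downstream. The Snap25 peak, with its middle at 791 bp, does not reach the start.

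For training in old mice, 8 of the 9 promoter peaks had folds below 0, the Unc13b peak had the lowest, and the Unc13b and upstream Rims2 peaks were called. Folds below 0 were general: the 95th percentile of all 12204 promoter peaks was -0.34. In the authors' deposited table the log2 level of the Unc13b peak was 6.27 in old conditioned and 8.07 in old naive mice, and 6.60 in young conditioned and 7.07 in young naive mice. Its rank among the 12204 promoter peaks of a group was at the 48.0th percentile in old conditioned, the 69.7th in old naive, the 68.3rd in young conditioned and the 64.0th in young naive mice. So in old conditioned mice the peak stood lower among promoters than in the other 3 groups. The deposited log2 fold, conditioned minus naive, was -1.59 in old mice (p = 0.000685, FDR = 0.0180 in the authors' deposited table), and 10.4% of promoter peaks had a lower one.

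The upstream Rims2 peak was the other one past an FDR of 0.05 for training in old mice, at a log2 fold of -1.19 (FDR = 0.00561 in the authors' deposited table), with levels of 8.01 in old conditioned and 9.42 in old naive mice. Unc13a followed at -1.36 (FDR = 0.0938 in the authors' deposited table) and did not pass. The internal Rims2 start was at -1.07, Rims1 at -0.90, Cadps at -0.62, Rab3a at -0.33 and Syt1 at -0.08, and Snap25 was the only one above 0, at 0.45 (FDR = 0.711), in the authors' deposited table. The Snap25 peak was weak, at the 4.69th level percentile in old naive and the 26.4th in old conditioned mice. It was called in 1 of 3 old naive and 2 of 3 old conditioned libraries. Of all 12204 promoter peaks 1940 were called lower and 0 higher, with a median of -1.03, against -0.90 over the 9. Called peaks were 2 of 9, beside 15.9% of all promoter peaks. For the Unc13b RNA in old mice, the conditioned minus naive log2 difference was 0.07. No number in the titles joins an RNA library to an H2A.Z library.

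In young mice 0 of the 9 peaks passed in the authors' deposited table, beside 14.6% of all promoter peaks. Unc13b was at -0.47 (FDR = 0.481), and the lowest, the internal Rims2 start, at -1.04 (FDR = 0.143), with a median of -0.48 over the 9 and -0.63 over all promoter peaks. Whether the Unc13b fold differs between ages was not tested, as the table holds no values per library. With age, 0 of the 9 passed in naive mice (0.0% of all promoter peaks) and 0 of the 9 in conditioned mice (0.0%). Old minus young at Unc13b was -0.46 in conditioned mice, where 5.92% of promoter peaks had a lower fold, and 0.67 in naive mice, where 73.9% did. The unadjusted p of the authors' deposited table was 0.371 for the first and 0.0829 for the second. In naive mice the upstream Rims2 peak (0.81, p = 0.0151) and the Rims1 peak (0.76, p = 0.0475) were under 0.05 before adjustment in the authors' deposited table. The median fold of all promoter peaks was also above 0 there, at 0.44. Lower folds were held by 85.8% of promoter peaks for Rims2 and 82.2% for Rims1. The share of all promoter peaks under 0.05 before adjustment was not computed.

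**Figure D5:**
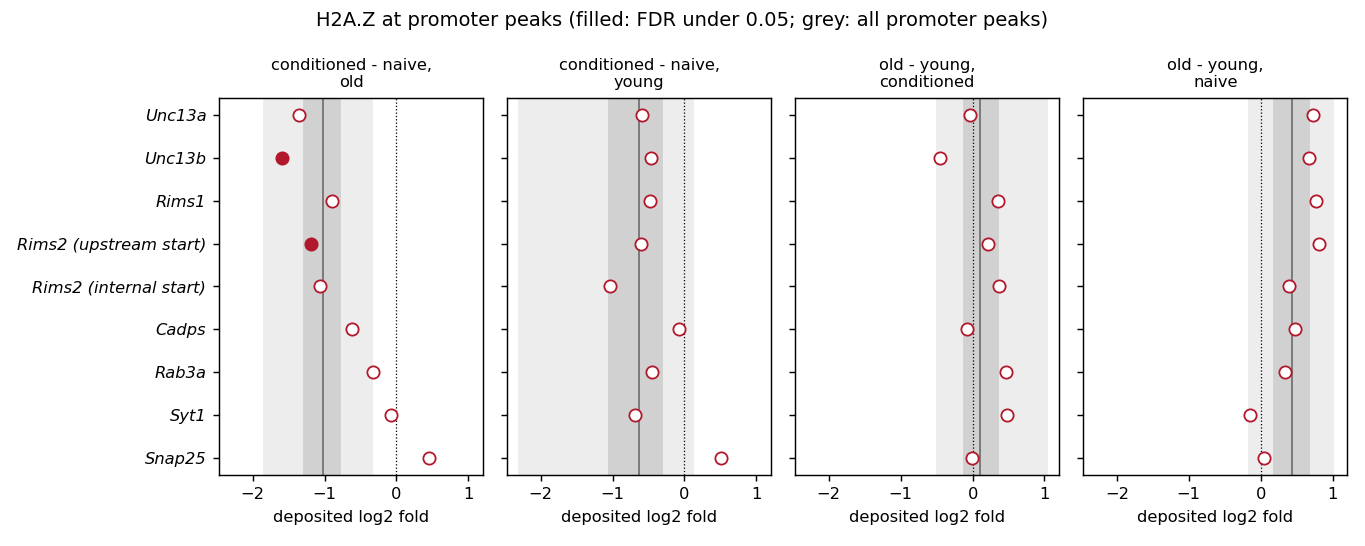
Deposited log2 folds of the 9 H2A.Z promoter peaks in 4 comparisons (circles are peaks, filled where the deposited FDR is under 0.05, dark and light grey bands hold the middle 50% and 90% of 12204 promoter peaks, lines their medians). For training in old mice Unc13b is at -1.59 and Snap25 at 0.45, on either side of the median of -1.03. The Snap25 peak was called in 1 of 3 old naive libraries, and its fold did not pass.

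The authors' deposited table also lists, for each peak, the nearest region of 4 other histone marks. No library in the labels was made for these marks, and the tissue and age behind their regions are not stated here. Overlap of any length with the listed region was counted. All 9 peaks overlapped H3K4me3, the mark of active promoters (93.8% of all promoter peaks), and all 9 on H3K4me1 (86.7%). H3K27ac, a mark of active promoters and enhancers, covered 8 of 9 (66.8%), the internal Rims2 start being the exception. H3K27me3, the mark laid down by Polycomb, overlapped 7 of 9 peaks (34.8% of all promoter peaks). Among them were Unc13b, Unc13a and both Rims2 peaks, but not Rab3a and Snap25.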

How the data were processed

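The labels put 12 RNA, 12 H2A.Z and 12 input libraries in 4 groups of 3. The RNA files hold raw counts for each symbol, as the authors deposited them. A single H2A.Z table, also deposited, lists consensus peaks with log2 folds, log2 mean levels of each group, p-values and FDR values. Its remaining columns, as deposited, say how many libraries called the peak and give positions and distances in bp of genes and marks. The submitters' processing notes name, without a role, DiffBind 1.12.2, edgeR 3.8.6 and R 3.1.0 beside MACS2 2.0.10, HTSeq 0.6.1p2, TopHat and Bowtie2 2.2.1. Read trimming tools in these notes are cutadapt and Trim Galore 0.4. Not given in the sources used here are their roles, the annotation, the strand setting and the H2A.Z scaling.

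The fit used edgeR 4.0.16 in R 4.3.3: filterByExpr (count minimum 10), TMM scaling, 1 quasi-likelihood fit of the 4 groups, two-sided tests, and Benjamini-Hochberg adjustment over 14405 genes at 0.05. Standard errors were derived from the F statistic. The fit was tested on simulated data. Log2 CPM for likeness carried a prior count of 2. Likeness was ranked among genes with a mean log2 CPM of at least 1.

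H2A.Z folds were deposited as naive minus conditioned and young minus old, and were turned round. The letter T in its headers was taken to mean conditioned, because N stands for naive. Level differences of the deposited table carry a constant offset against the folds, of -0.215 (training, old mice), 0.334 (age, naive mice) and 0.118 (age, conditioned mice), so levels were ranked within a group. Promoter windows came from RefSeq. Figures used matplotlib 3.10.9 in Python 3.11.15, with numpy 2.4.6 and pandas 2.3.3.

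Genes named are the 9, a set of 16 partners whatever their values (some are not reported here), release genes called by edgeR (there were 0) and the 5 genes most like Unc13b. Outside this rule, Apba1, Dlg1, Slc17a7, Syngr1, Syngr3, C4b, Pcdhb9, Fosb and Dusp1 were named after their values were seen. The members, lists and tests were chosen with earlier results of these data known. Other settings were DESeq2 1.42.0, upper-quartile scaling, no low-count filter, only the compared groups, choroid plexus or nuclear RNA covariates, each library left out, and other distance and FDR limits.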

Additional observations from a re-analysis of the deposited data

How the results depend on the processing

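No paired analysis was possible because no number in the titles recurs among RNA libraries, and shared numbers join only an immunoprecipitated library to its input. The count of 0 called among the 9 genes held in all 4 tested RNA comparisons under every setting run, and 675 recomputed values of single genes held 0 past the threshold. The count of release machinery genes called for age in conditioned mice was 0 except with DESeq2, which called 8. At an FDR under 0.01 in the authors' deposited table, 1 of the 9 promoter peaks stayed called for training in old mice, that of Rims2.

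Reversals of sign, 21 of the 675 values, were limited to uncalled differences of at most 0.11 on the log2 scale, and the cause was not tested. Upper-quartile scaling gave -0.0047 for Rims2 and -0.0028 for Cadps for training in young mice. The choroid plexus covariate gave -0.0034 for the Rims1 interaction. Leaving out young naive library 81 and old conditioned library 61 together, chosen after seeing the data, gave -0.0082 for Rims1 (age in conditioned mice), -0.013 for Rims2 and -0.017 for Rab3a (training in young mice), -0.051 for the Rims1 and 0.028 for the Snap25 interaction. Leaving out 1 library at a time gave, for age in conditioned mice, -0.0082 to 0.051 for Rims1 and -0.10 to 0.0098 for Rims2. For training in young mice it gave -0.046 to 0.069 for Rims2, -0.017 to 0.15 for Rab3a and -2.7e-05 to 0.045 for Cadps. For training in old mice it gave -0.084 to 0.018 for Unc13a and -0.083 to 0.014 for Rims2. For the interaction it gave -0.029 to 0.030 for Rims1, -0.098 to 0.017 for Rims2 and -0.0058 to 0.17 for Rab3a.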
